A study of Mus musculus with 2 samples.

Results

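CCR8 and CCR4 are chemokine receptors of lymphocytes, and 6 genes make up their axes in the mouse: the receptor genes Ccr8 and Ccr4, the CCR8 ligand genes Ccl1 and Ccl8, and the CCR4 ligand genes Ccl17 and Ccl22. The 6 genes were taken by symbol from the 32285 genes of both count matrices, and all 6 were found. Their transcripts were summed by cell class and library, to compare the cells that carry the ligands with the cells that carry the receptors. Every member had at least 95 transcripts in each library, and none was removed by a filter.

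The study set single-cell RNA of mouse optic nerves under antibodies to 2 immune checkpoint receptors side by side. Both libraries came from Nf1-OPG mice, which develop a low-grade optic glioma. These animals carry 1 Nf1 allele broken by a neomycin cassette in exon 31 in every cell, and lose the floxed allele where GFAP-Cre acts, in neuroglial progenitors, so cells outside that lineage, immune cells included, are heterozygous for Nf1 in both groups. One group was given anti-PDCD1, an antibody to the receptor PD-1, and the other anti-TIGIT, an antibody to the receptor TIGIT. Each group was 1 library made from the pooled nerves of 10 mice of 12 weeks of age, after debris and myelin removal and a sort for live cells that excluded 7-AAD. The protocol text in the labels also names meningeal dura, so cells of the nerve sheath may be included. An untreated library was not analysed here, and every comparison is of one antibody with the other.

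Chemokines are small secreted proteins that steer cells through G protein-coupled receptors. CCL1 is best known as a product of activated T cells, and in the mouse CCL8 also acts on CCR8. CCR8 is known from regulatory T cells of tumours and barrier tissues, from type 2 helper cells and from type 2 innate lymphoid cells (ILC2). CCL17 and CCL22 are typical products of dendritic cells and are induced by interleukin 4 through the factor STAT6. CCR4 is carried by regulatory T cells and by memory CD4 T cells.

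The ligand genes lie in pairs. By GENCODE M21 on build GRCm38, Ccl22 is at chr8:94745590-94751699 and Ccl17 at chr8:94810453-94812036, both on the plus strand, 58.8 kb apart with Cx3cl1 between them. Ccl8 is at chr11:82115185-82116799 on the plus strand. Ccl1 is annotated on the minus strand at chr11:82176657-82305690, a span that reaches past the RefSeq start used for its promoter, and 59.9 kb separates it from Ccl8. The receptor genes are both on chromosome 9, Ccr4 at chr9:114490316-114504916 on the minus strand and Ccr8 at chr9:120092114-120094906 on the plus strand.

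The sequences just before the 4 ligand genes are shown because ligands of one receptor differed in the cells that carried them. They are from RefSeq promoters of build GRCm38.p6, in the direction of the gene, and end at the base before the annotated start. Ccl17 is chr8:94810203-94810452, Ccl22 is chr8:94745434-94745589, Ccl1 is the minus strand of chr11:82179813-82180062 and Ccl8 is chr11:82114935-82115184. The Ccl17 window lies within the longer RefSeq span of that gene and before its GENCODE start, and the Ccl22 window was shortened to the bases before the first annotated exon. Capitals mark the motif matches described after the sequences.
Ccl17: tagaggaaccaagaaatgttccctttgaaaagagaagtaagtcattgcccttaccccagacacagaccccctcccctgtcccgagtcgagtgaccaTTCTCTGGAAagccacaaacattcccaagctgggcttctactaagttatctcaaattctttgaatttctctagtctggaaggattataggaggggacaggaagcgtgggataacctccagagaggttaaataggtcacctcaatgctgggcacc
Ccl22: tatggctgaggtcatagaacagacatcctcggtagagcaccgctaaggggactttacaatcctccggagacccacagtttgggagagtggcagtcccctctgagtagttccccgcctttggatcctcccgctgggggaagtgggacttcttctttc
Ccl1: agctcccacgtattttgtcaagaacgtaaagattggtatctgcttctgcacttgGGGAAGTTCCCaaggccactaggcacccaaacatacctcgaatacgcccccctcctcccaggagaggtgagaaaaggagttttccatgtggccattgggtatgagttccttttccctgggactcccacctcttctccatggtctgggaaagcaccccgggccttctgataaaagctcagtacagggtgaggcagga
Ccl8: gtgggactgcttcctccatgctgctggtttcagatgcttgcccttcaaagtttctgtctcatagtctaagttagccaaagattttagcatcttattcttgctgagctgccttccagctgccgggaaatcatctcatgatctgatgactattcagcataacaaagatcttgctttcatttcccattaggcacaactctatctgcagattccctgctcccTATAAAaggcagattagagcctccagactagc

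The motifs were searched on both strands in 250 bases before the start of 32851 genes. TTCNNNNGAA, the form bound by STAT6, was in 5.85% of all promoters and occurred in Ccl17, 154 bases before the start. The NF-kappaB consensus was in 7.25% of promoters and occurred in Ccl1, read on both strands at overlapping places 196 and 195 bases before the start. TATAAA was in 12.4% of promoters and occurred in Ccl8, 32 bases before the start. GAAANNGAAA, the interferon response core, was in 2.98% of promoters and in none of the 6. None of the 4 motifs matched in Ccl22, Ccr8 or Ccr4. A match describes the letters and not a bound site.

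The anti-PDCD1 library had 13997 barcodes with a median of 4505 UMIs (unique molecular identifiers, each counted as 1 transcript), and the anti-TIGIT library had 7915 with a median of 4082. After filters 13275 anti-PDCD1 cells and 7495 anti-TIGIT cells were kept and classed by marker genes, none of which is a member. Cells with markers of more than 1 family, called mixed, were 9.30% of anti-PDCD1 and 2.82% of anti-TIGIT cells. The libraries shared 163 barcode sequences, cells with only Xist (3089 and 1493) and with only Y-linked UMIs (3426 and 2479) were in both, and the file headers name Cell Ranger 8.0.0 for one and 8.0.1 for the other, so the version cannot be told apart from the treatment. With 1 library a group no test was possible and no p-value is given. All intervals are 95% intervals for counting error only, and they say nothing of the spread between mice. A level is given as CPM, the UMIs of a gene per 1000000 UMIs of all cells in the class. A gene is called higher or lower in anti-PDCD1 where its log2 ratio over anti-TIGIT was at least 1 in size with an interval leaving out 0. It cannot be told apart whether fewer cells of a class carried a transcript or each carried less, except where shares of cells are given.

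The 2 axes ran between different cells. Ccl1 and both receptors were in lymphocytes, Ccl8 in macrophages and monocytes, and Ccl17 and Ccl22 in dendritic cells. T cells and ILC2 together held 86.1% of the Ccl1 UMIs of the anti-PDCD1 library and 87.5% in anti-TIGIT. Of the receptors they held 80.5% of Ccr8 in anti-PDCD1 and 86.7% in anti-TIGIT, and 82.3% and 82.1% of Ccr4. Of Ccl8, macrophages and monocytes held 77.7% in anti-PDCD1 and 90.9% in anti-TIGIT. Dendritic cells held 62.7% of Ccl17 in anti-PDCD1 and 61.8% in anti-TIGIT, and 66.7% and 69.8% of Ccl22. They held no Ccl1 UMI in either library. Oligodendrocytes, which should lack all 6 genes and show how much free RNA the droplets took up, had at most 2.27 CPM of any member.

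**Figure D1:**
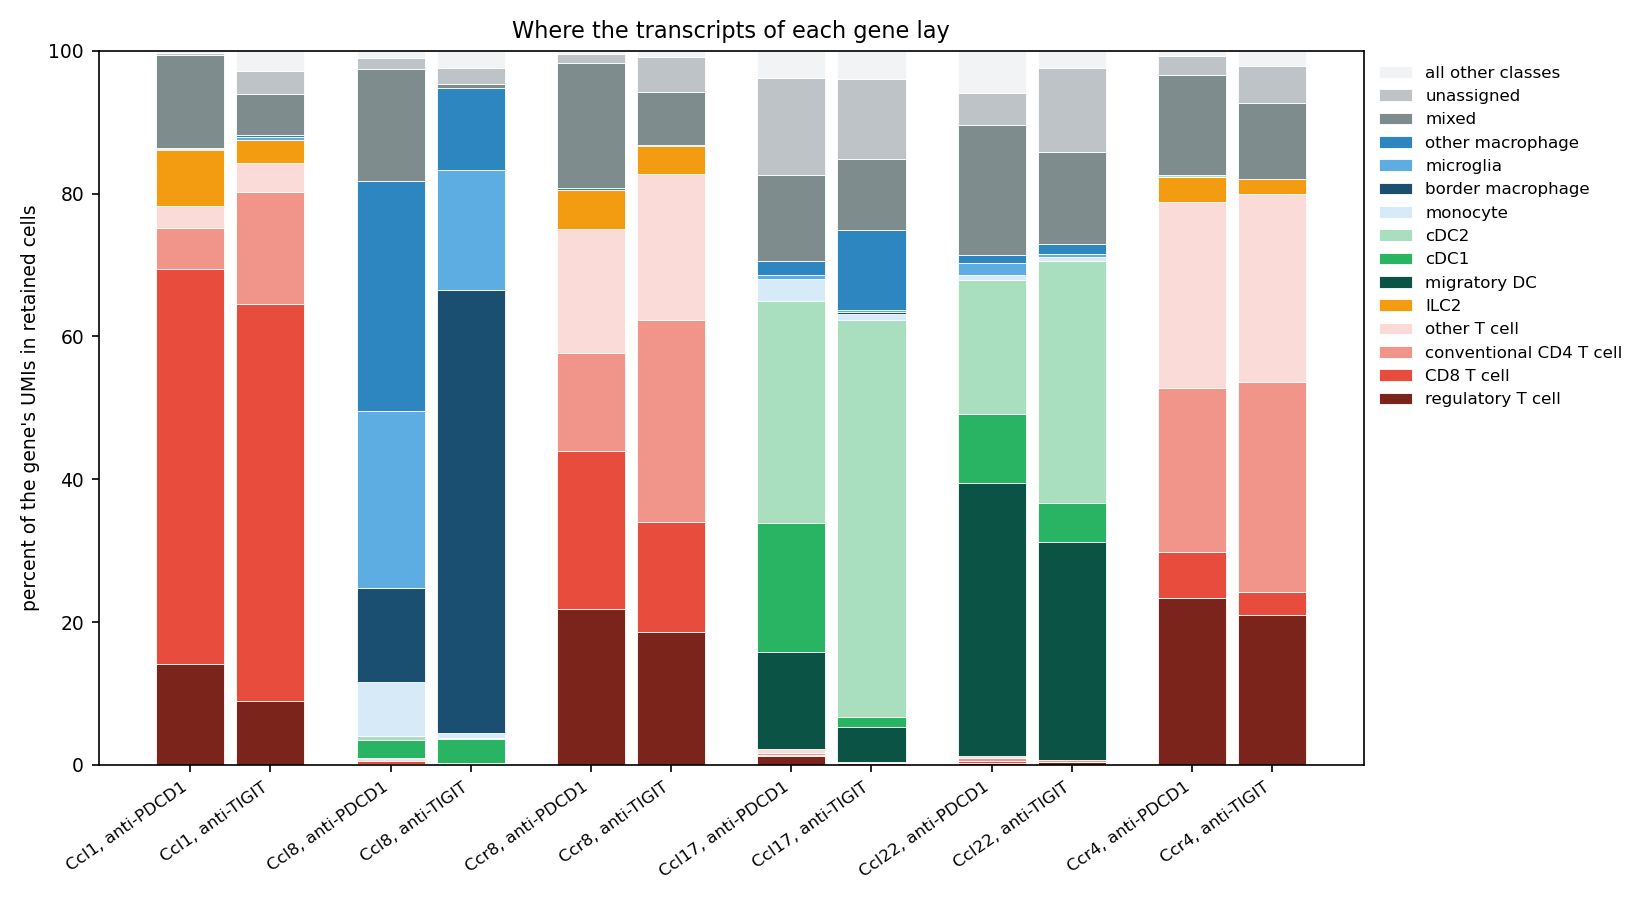
Stacked bars of the percentage of each gene's UMIs, over all retained cells of a library, that lay in each marker-gated class, with anti-PDCD1 left of anti-TIGIT. Red and orange are lymphocytes, green dendritic cells, blue macrophages and monocytes, and grey the mixed and unassigned cells. Ccl8 is the ligand whose bars differ most by eye, with 13.1% in border macrophages in anti-PDCD1 and 62.1% in anti-TIGIT.

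Over whole libraries, 2379 Ccl1 UMIs gave 30.0 CPM in anti-PDCD1 and 313 gave 8.06 CPM in anti-TIGIT. Ccr8 had 52.0 and 15.7 CPM, Ccl8 55.2 and 25.0 CPM, and Ccl17 37.3 and 19.2 CPM, with the anti-PDCD1 value above the anti-TIGIT value for each. Ccl22 had 8.51 CPM in anti-PDCD1 and 7.60 CPM in anti-TIGIT, and Ccr4 had 3.34 and 2.45 CPM. Ccl22 and Ccr4, both of the CCR4 axis, thus had the nearest levels in the 2 libraries. The make-up of the libraries differed beside these levels: regulatory T cells were 3.19% of anti-PDCD1 and 1.24% of anti-TIGIT cells, and border macrophages 1.51% and 8.02%. The part of make-up in the library levels was not tested.

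**Figure D2:**
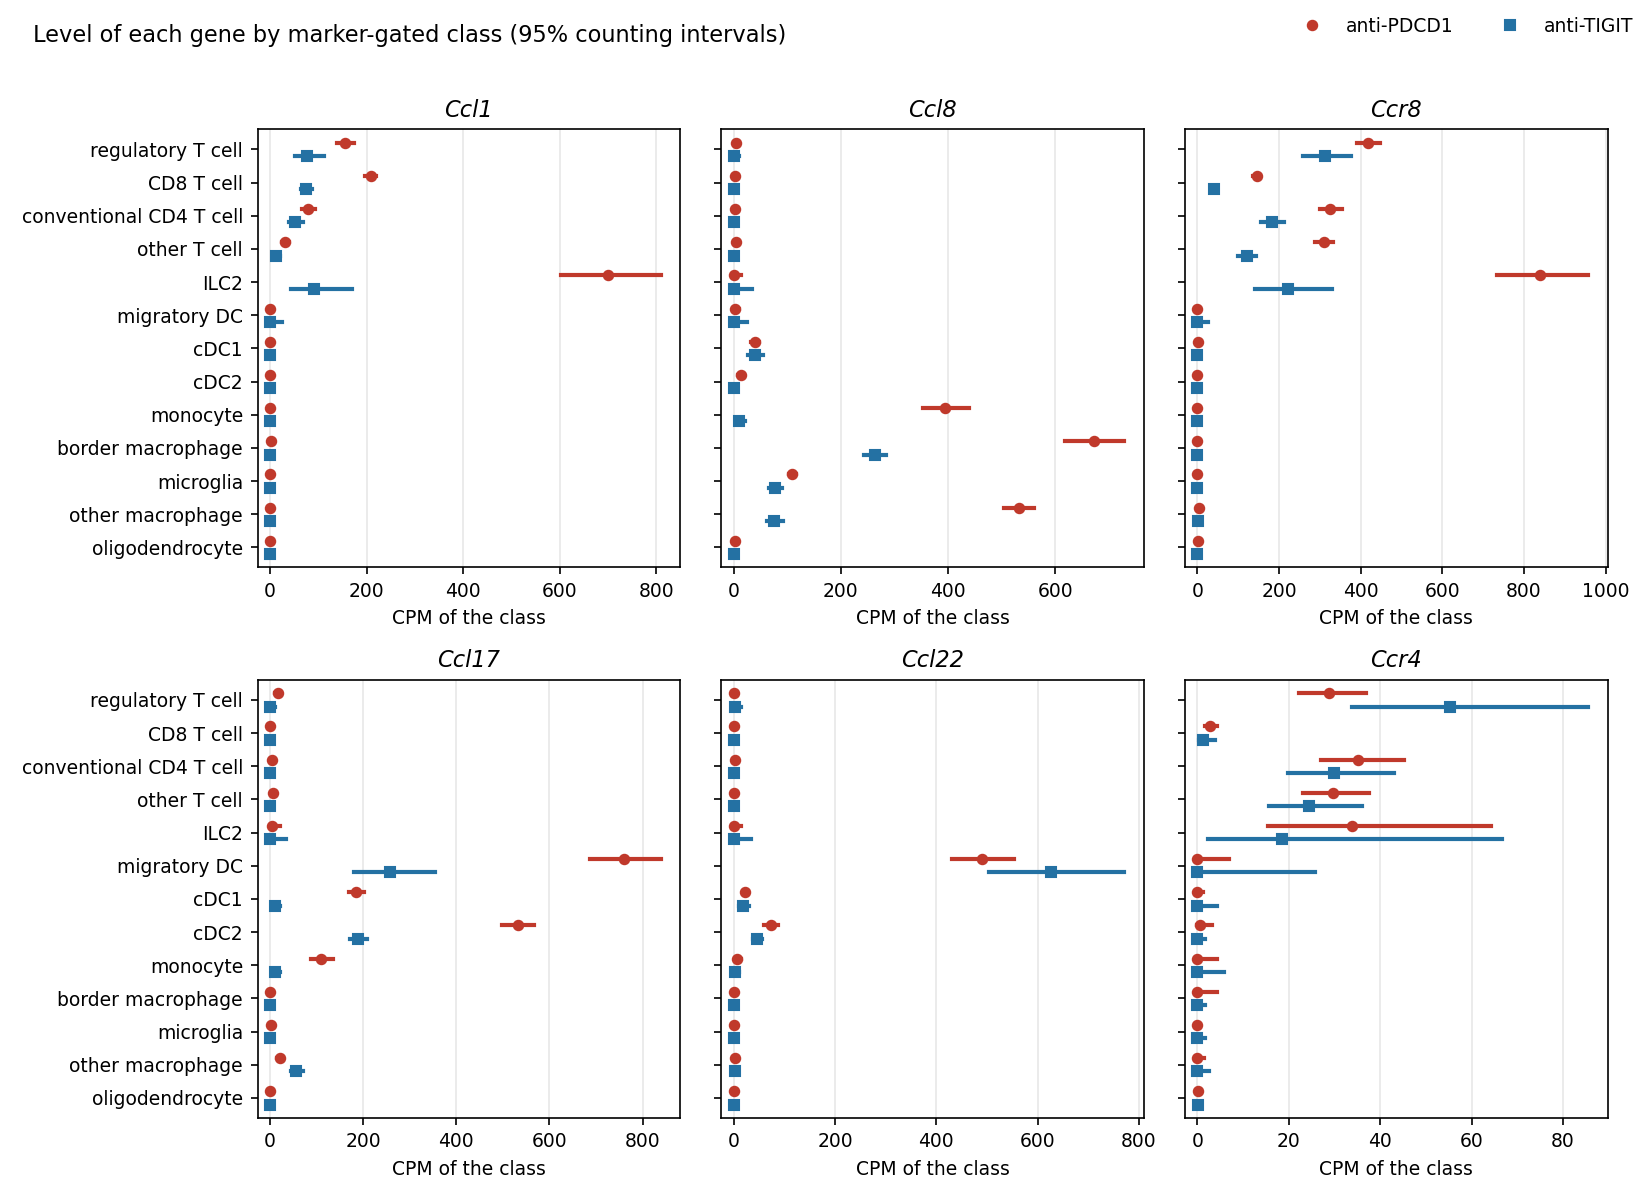
CPM of each member (horizontal axis, linear, a scale of its own in each panel) in 13 marker-gated classes, with anti-PDCD1 as red circles above anti-TIGIT as blue squares. Lines are 95% intervals for counting error. Ccl1, Ccr8 and Ccr4 stand in the lymphocyte rows, Ccl17 and Ccl22 in the dendritic cell rows and Ccl8 in the macrophage and monocyte rows.

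Ccl1, the T cell-derived ligand of CCR8, was carried by few cells at high counts. CD8 T cells held 55.3% of its UMIs in anti-PDCD1 and 55.6% in anti-TIGIT. In CD8 T cells 1316 UMIs gave 208 CPM in anti-PDCD1, against 174 UMIs and 74.5 CPM in anti-TIGIT. Ccl1 was thus higher in anti-PDCD1 CD8 T cells, with a log2 ratio of 1.48 (1.26 to 1.72). Of the 11150 genes with at least 20 UMIs in CD8 T cells, 5.53% were at least 2-fold higher. The Ccl1 ratio was under 2-fold in CD8 T cells with only Y-linked UMIs, at 0.88, and with 1 marker fewer in every gate, at 0.90 (0.65 to 1.15), and it was 2.16 after thinning. The share of CD8 T cells with a Ccl1 UMI was 3.58% in anti-PDCD1 (52 of 1451) and 2.88% in anti-TIGIT (18 of 625), and with each cell thinned to 1000 UMIs it was 1.60% and 1.13%, with overlapping intervals. So the summed level differed more than the share of cells. In oligodendrocytes 0.215% and 0.203% of cells had a Ccl1 UMI.

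Among other lymphocytes, ILC2 had the highest Ccl1 level, with an interval apart from every other class in anti-PDCD1 and overlapping those of regulatory, CD8 and conventional CD4 T cells in anti-TIGIT. They had 186 UMIs in 67 cells and 700.2 CPM in anti-PDCD1, against 10 UMIs in 43 cells and 92.1 CPM in anti-TIGIT, a log2 ratio of 2.93 (2.01 to 4.01). Background in this small class was wide, since 11.7% of its 2497 measured genes were at least 2-fold higher. Regulatory T cells had 156 CPM in anti-PDCD1 (335 UMIs) and 77.5 CPM in anti-TIGIT (28 UMIs), a log2 ratio of 1.01 (0.45 to 1.62), where 7.56% of genes were at least 2-fold higher and 4.43% lower. Single cells set these sums: 1 anti-PDCD1 regulatory T cell held 174 of the 335 UMIs and 1 anti-TIGIT cell held 26 of the 28, and without both cells the log2 ratio was 3.75, while a mean over cells put it at 0.27. In conventional CD4 T cells Ccl1 had 79.7 and 52.1 CPM, a log2 ratio of 0.61 (0.13 to 1.11) and so within 2-fold. Without the top cell of each library, 1 of which held 120 of the 138 anti-PDCD1 UMIs, that ratio turned to −1.72. Other T cells either had none of Foxp3, Cd4, Cd8a, Cd8b1 and Trdc, or had Cd4 together with Cd8a or Cd8b1. Of them, 101 of 726 in anti-PDCD1 and 13 of 386 in anti-TIGIT had a Cd8a UMI. Ccl1 in other T cells was at 31.8 CPM in anti-PDCD1 and 12.7 CPM in anti-TIGIT, a log2 ratio of 1.33 (0.47 to 2.31). Without the top cells that ratio was 0.52 (−0.67 to 1.87), against a background of 5.89% higher and 2.23% lower. Natural killer cells had no Ccl1 UMI in 82 anti-PDCD1 and 105 anti-TIGIT cells, which allows a share of cells with a UMI of up to 3.66% and 2.86% and does not limit the cells that express the gene.

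Ccl1-positive CD8 T cells had a median of 7061.5 UMIs in anti-PDCD1 and 8400.5 in anti-TIGIT, and Ccl1-negative ones 3715 and 3061. CD8 T cells with a UMI of Xcl1, the XCR1 ligand made by activated CD8 T cells, held 1310 of 1316 Ccl1 UMIs in anti-PDCD1 and 173 of 174 in anti-TIGIT. Those cells were 540 of 1451 and 287 of 625. Cells with Crtam, an activation receptor singled out after its values were seen, held 1238 and 156 of the Ccl1 UMIs in 272 anti-PDCD1 and 138 anti-TIGIT cells. Ccl1 was detected in 13.2% and 10.1% of the Crtam-positive CD8 T cells, so these sums follow few cells of high count.

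**Figure D3:**
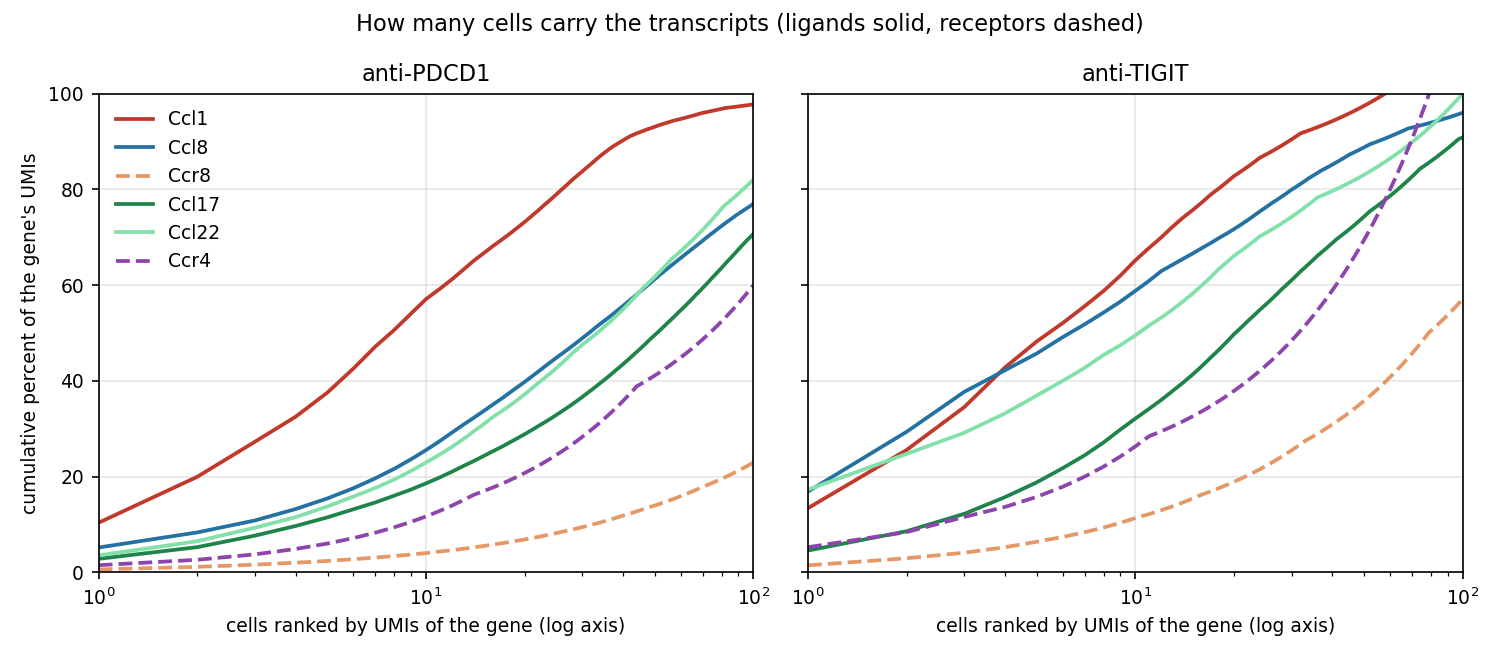
Cumulative percentage of each gene's UMIs (vertical axis) against cells ranked by their UMIs of that gene (horizontal, log axis, first 100 cells), anti-PDCD1 left and anti-TIGIT right. Ligands are solid and receptors dashed. The top 8 anti-PDCD1 cells and 6 anti-TIGIT cells held 50% of the Ccl1 UMIs, against 338 and 79 cells for Ccr8.

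Concentration in few cells set the ligands apart from the receptors in the ranked-cell curves. The 10 highest cells held 57.1% of Ccl1 in anti-PDCD1 and 65.2% in anti-TIGIT, 25.6% and 58.8% of Ccl8, 18.6% and 32.1% of Ccl17, and 23.0% and 49.5% of Ccl22. They held 4.05% and 11.3% of Ccr8 and 11.7% and 26.3% of Ccr4. Highest single cells had 247 and 42 UMIs of Ccl1, while no cell had more than 26 and 9 UMIs of Ccr8. A ligand level in a small class therefore rests on fewer cells than its count of UMIs shows.

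Ccl8, the macrophage ligand of CCR8 in the mouse, had its UMIs divided differently among the macrophage classes of the 2 libraries. Border macrophages, which line vessels and meninges, held 13.1% of its UMIs in anti-PDCD1 (12.1 to 14.1) and 62.1% in anti-TIGIT (59.0 to 65.2). Microglia held 24.8% and 16.8%, and macrophages outside both gates 32.2% and 11.4%. Border macrophages were 200 cells in anti-PDCD1 and 601 in anti-TIGIT, and the part of cell numbers in these shares was not tested.

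Per UMI, Ccl8 was higher in anti-PDCD1 in 3 of the 4 macrophage and monocyte classes. Border macrophages had 574 UMIs and 672 CPM in anti-PDCD1, against 603 UMIs and 263 CPM in anti-TIGIT, a log2 ratio of 1.35 (1.18 to 1.52), where 1.72% of genes were at least 2-fold higher and 4.4% lower. A mean over cells, which gives each cell equal weight, put that ratio at 0.62, thinning to 1000 UMIs put it at 0.74, and 1 cell held 228 of the 574 UMIs. Other macrophages had 1409 UMIs and 532 CPM in anti-PDCD1 and 111 UMIs and 75.8 CPM in anti-TIGIT, a log2 ratio of 2.81 (2.53 to 3.10) against a background of 5.96%, and a mean over cells put it at 1.63. This class was shallow in anti-PDCD1, with a median of 1408 UMIs a cell against 2930 in anti-TIGIT. Monocytes had 334 UMIs in 17 of 122 anti-PDCD1 cells, and 6 UMIs in 3 of 116 anti-TIGIT cells. Their levels were 395 and 9.45 CPM, a log2 ratio of 5.39 (4.25 to 6.84), with 4.06% of genes at least 2-fold higher and 6.05% lower. The monocyte ratio was 3.97 with 1 marker fewer in every gate and 2.86 in cells with only Y-linked UMIs. In that gate the macrophage transcript C1qa was at 4655 CPM in anti-PDCD1 and 2075 CPM in anti-TIGIT, and its part in the difference was not tested.

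Microglia, the resident macrophages of nervous tissue, differed in Ccl8 less by sum than by share of cells. They had 1086 UMIs and 109 CPM in anti-PDCD1, against 163 UMIs and 77.3 CPM in anti-TIGIT, a log2 ratio of 0.50 (0.26 to 0.75). Microglia with a Ccl8 UMI were 9.12% in anti-PDCD1 and 2.04% in anti-TIGIT. Thinned to 1000 UMIs they were 4.0% (3.03 to 5.18) and 0.969% (0.315 to 2.25), so these intervals do not overlap. The sum of the anti-TIGIT library rested on 2 cells with 81 and 44 of its 163 UMIs, and without the top cell of each library the log2 ratio was 1.34. In Xist-positive microglia it was 6.21, from 305 UMIs and 1 UMI, and in Y-positive microglia 2.45, from 435 and 14 UMIs. With 1 marker fewer in every gate it was 1.54 (1.19 to 1.91), which would pass 2-fold. The border macrophage transcript Mrc1 was at 29.6 CPM in anti-PDCD1 and 191 CPM in anti-TIGIT microglia, and its part was not tested. Background in microglia was 4.09% higher and 7.01% lower. The median log2 ratio of all genes was −0.20 in microglia and −0.15 in other macrophages, and relative to it Ccl8 stood at 0.70 and 2.96. With all macrophages and monocytes summed, Ccl8 had 238 CPM in anti-PDCD1 and 136 CPM in anti-TIGIT, a log2 ratio of 0.81 (0.70 to 0.92).

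Type 1 conventional dendritic cells (cDC1) had 39.3 CPM of Ccl8 in anti-PDCD1 and 39.1 CPM in anti-TIGIT, a log2 ratio of 0.01 (−0.56 to 0.61), but all 33 anti-TIGIT UMIs lay in 1 cell. Oligodendrocytes with a Ccl8 UMI were 1.21% in anti-PDCD1 and 0.101% in anti-TIGIT. CD8 T cells had 16 and 1 Ccl8 UMIs, in 0.827% and 0.160% of cells. In anti-PDCD1 that share is below the oligodendrocyte share, but the classes differ in depth. Per UMI, CD8 T cells were at 2.53 CPM in anti-PDCD1, near the highest oligodendrocyte level given above, so Ccl8 there is not told apart from background. In cDC2 Ccl8 had 23 UMIs in 5 anti-PDCD1 cells and 2 UMIs in anti-TIGIT, a log2 ratio of 3.85 (1.84 to 6.98). Without the top cell of each library 10 UMIs and 1 UMI were left, and a mean over cells put the ratio at 2.28. Background in cDC2 was 2.59% of genes at least 2-fold higher and 3.9% lower.

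Ccr8, the receptor of both ligands, was spread over many cells of the regulatory, CD8, conventional CD4 and other T cell classes. The 16 gamma-delta T cells of each library held 2 Ccr8 UMIs in anti-PDCD1 and 0 in anti-TIGIT. Its level was ordered from ILC2 at 839 CPM, through regulatory T cells at 418 CPM, conventional CD4 T cells at 326 CPM and other T cells at 309 CPM, to CD8 T cells at 145 CPM in anti-PDCD1. In anti-TIGIT regulatory T cells stood first at 313 CPM, then ILC2 at 221 CPM, conventional CD4 T cells at 183 CPM, other T cells at 121 CPM and CD8 T cells at 40.2 CPM. The intervals of conventional CD4 and other T cells overlapped in anti-PDCD1. In anti-TIGIT the ILC2 interval overlapped those of regulatory, conventional CD4 and other T cells. Natural killer cells had 2 and 4 UMIs.

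The Ccr8 ratio was past 2-fold in CD8 T cells, other T cells and ILC2, and within 2-fold in conventional CD4 and regulatory T cells. In CD8 T cells 915 UMIs gave 145 CPM in anti-PDCD1, against 94 UMIs and 40.2 CPM in anti-TIGIT, a log2 ratio of 1.85 (1.54 to 2.17). Other T cells had 719 and 124 UMIs, a log2 ratio of 1.36 (1.08 to 1.64), and ILC2 had 223 and 24 UMIs, a log2 ratio of 1.92 (1.31 to 2.60). Split by sex-linked transcripts, the CD8 T cell ratio was 4.29 in Xist-positive cells, from 253 and 2 UMIs, and 1.72 in Y-positive cells, and the ILC2 ratio was 1.96 and 0.78. After thinning the ILC2 ratio was 1.04. Conventional CD4 T cells had 564 and 172 UMIs, a log2 ratio of 0.83 (0.58 to 1.09) that stays within 2-fold, in a class where 5.05% of genes were at least 2-fold higher. Regulatory T cells had 899 and 113 UMIs, and their log2 ratio was 0.42 (0.14 to 0.72). All 5 Ccr8 ratios were above 0, and whether they differ from each other was not tested.

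Shares of cells with Ccr8 were also compared at equal depth. Of regulatory T cells, 62.3% in anti-PDCD1 and 44.1% in anti-TIGIT had a Ccr8 UMI, and after thinning to 1000 UMIs 29.8% (25.4 to 34.4) and 27.2% (18.4 to 37.4), which overlap. Of CD8 T cells, 29.2% and 8.32% had one, and 11.4% (9.82 to 13.2) and 2.25% (1.24 to 3.75) after thinning. The CD8 intervals stay apart. Conventional CD4 T cells had 23.6% and 14.7% after thinning, with the lower end of anti-PDCD1 at 19.9% and the upper end of anti-TIGIT at 19.2%. ILC2 had 68.7% and 27.9% unthinned, and 38.5% and 24.4% with overlapping intervals after thinning. Of oligodendrocytes 0.387% and 0 of 1971 had a Ccr8 UMI, at a median depth of 6595 and 6231 UMIs.

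**Figure D4:**
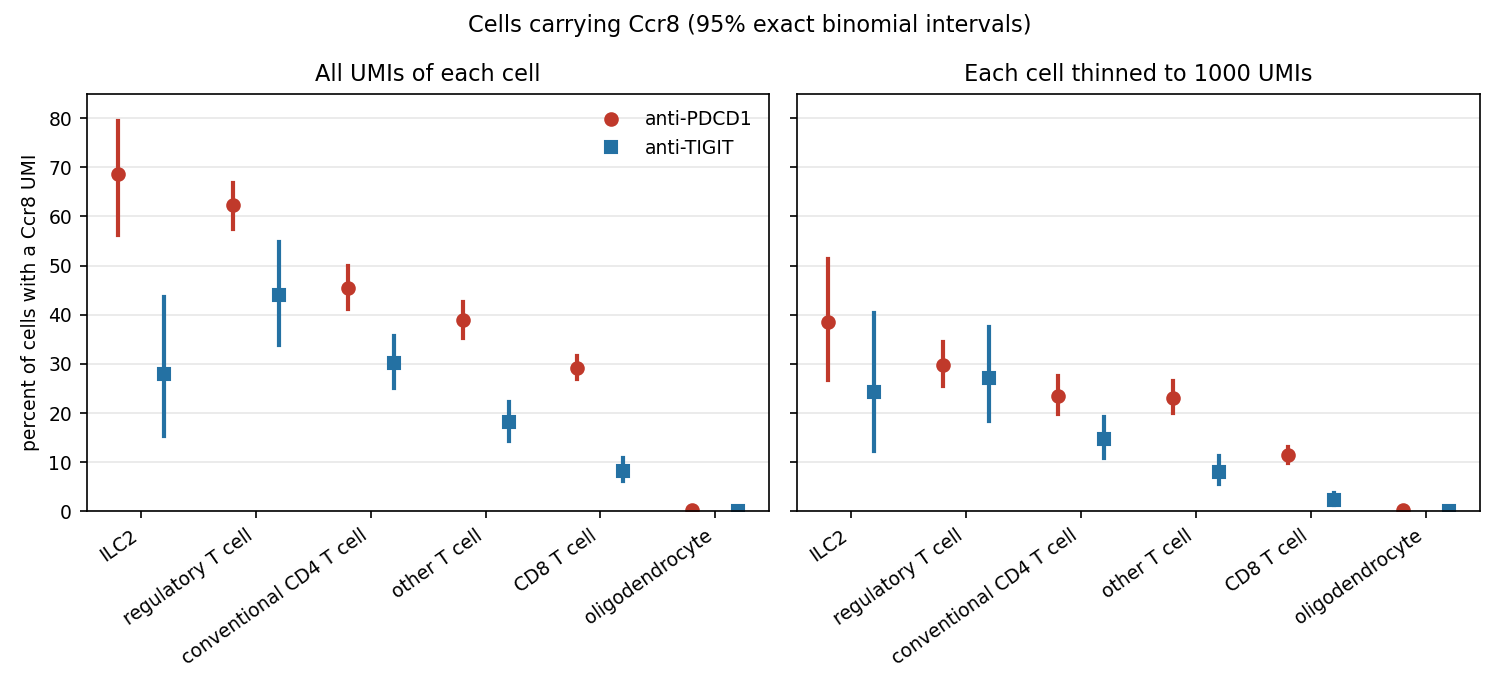
Percentage of cells of each class with at least 1 Ccr8 UMI, with 95% exact binomial intervals, from all UMIs of a cell (left panel) and after thinning every cell to 1000 UMIs (right panel). Anti-PDCD1 is the red circle left of the blue square of anti-TIGIT. After thinning the regulatory T cell values are 29.8% and 27.2%, and the CD8 T cell values 11.4% and 2.25%.

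Ccr8 in CD8 T cells was more abundant in cells with a UMI of Pdcd1, the transcript of PD-1, and of other genes. Pdcd1-positive CD8 T cells were 1095 of 1451 in anti-PDCD1 and 194 of 625 in anti-TIGIT. In them Ccr8 was at 177 CPM in anti-PDCD1 and 86.8 CPM in anti-TIGIT, and in Pdcd1-negative CD8 T cells at 27.3 and 7.30 CPM. The split was not particular to Pdcd1. With and without a Tnfrsf9 UMI, Ccr8 was at 200 and 60.0 CPM in anti-PDCD1, and at 110 and 11.5 CPM in anti-TIGIT. With and without a Tox UMI it was at 180 and 34.8 CPM, and at 82.2 and 2.44 CPM. Splits by Xcl1, Crtam, Il1rl1 and Cd8a had the same direction in both libraries. Ccr8-positive cells were deeper than Ccr8-negative ones, with medians of 4727.5 against 3431 UMIs in anti-PDCD1 and 5535.5 against 3011 in anti-TIGIT. The part of depth in these comparisons was not tested.

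Within CD8 T cells, 7973 genes were compared between cells with and without a Ccr8 UMI, and the genes named next were more abundant in Ccr8-positive cells of both libraries. Spp1, which encodes osteopontin, had 152 against 20.1 CPM in anti-PDCD1 and 381 against 23.8 CPM in anti-TIGIT. Xcl1 had 2244 against 606 CPM and 4929 against 627 CPM. Tnfrsf4, the costimulatory receptor OX40, had 249.7 against 58.0 CPM and 195 against 21.2 CPM. C2cd4b, Fcrl1, Tbc1d4, Il2ra (the interleukin 2 receptor alpha chain) and Myo1e followed. Lowest relative to Ccr8-negative cells was Ly6c2, a marker of memory and effector cells, with 50.1 against 1015 CPM and 122 against 1638 CPM. Plac8, Gpr183 and the granzyme gene Gzmb came next. The median log2 ratio over all genes compared was 0.06 in anti-PDCD1 and 0.05 in anti-TIGIT.

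Among regulatory T cells 3164 genes could be compared in the same way. C2cd4b had 99.6 against 28.2 CPM in anti-PDCD1 and 102 against 21.6 CPM in anti-TIGIT. Il1r2, the decoy receptor of interleukin 1, had 145 against 66.4 CPM and 216 against 43.2 CPM. Creb3l2, Phgdh, Rilpl2, Alcam, Irf8 and Cd200 were the other 6 at the upper end. The 4 at the lower end were H2-Ab1, H2-Eb1, H2-Aa and Il1b, transcripts of antigen-presenting cells, and Cd74 of the same kind was at 581 against 2133 CPM in anti-PDCD1 and 465 against 1755 CPM in anti-TIGIT. Their part in the Ccr8 pattern of regulatory T cells was not tested.

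The regulatory T cell gate, set by Foxp3 in a T cell, also held cells with a Cd8a UMI, 94 of 424 in anti-PDCD1 and 4 of 93 in anti-TIGIT. Without them Ccr8 was at 442 CPM in anti-PDCD1 and 317 CPM in anti-TIGIT. Of the 16 genes listed for CCR8-positive effector regulatory T cells, which include the gate gene Foxp3, all were measured in regulatory T cells and 1 was higher, Tnfrsf9 (4-1BB) with a log2 ratio of 1.22, which is near the 7.56% of all genes of the class that were higher. The median log2 ratio of the list was 0.01, beside −0.07 over all genes of the class. In CD8 T cells the same list had 15 measured genes, 8 at least 2-fold higher and 1 lower, with a median of 1.16 beside −0.02 over all genes, where 5.53% of genes were higher and 2.8% lower. The 8 were Ctla4 (1.16), Tnfrsf4 (1.43), Tnfrsf9 (1.21), Ikzf2 (1.19), Ikzf4 (1.24), Batf (1.26), Il1rl1 (1.5) and Il10 (2.89), and the 1 lower was Klrg1 (−2.08).

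ILC2, which make type 2 cytokines, had 9 measured genes of the 10 listed for type 2 lymphocytes, and 4 of these were at least 2-fold higher, in a class where 11.7% of genes were higher and 12.5% lower. Il13 had 514 UMIs in anti-PDCD1 and 4 in anti-TIGIT, a log2 ratio of 5.71 (4.35 to 7.60), and Il5 had 85 and 1. Il17rb was higher by 1.55, and Il4, at 1.29, had an interval that held 0. The list's median was 0.58, beside 0.03 over all genes of the class. Gata3, Il1rl1, Il17rb, Il5, Il13 and Areg of this list are also markers of this gate. The list's count and median are therefore not independent of how the cells were chosen. Ccr8 and Ccl1 were in the same ILC2 in 10 of 46 Ccr8-positive cells in anti-PDCD1 and 2 of 12 in anti-TIGIT, against 2 of 21 and 2 of 31 Ccr8-negative ILC2. After thinning Ccl1 was in 12.0% of Ccr8-positive and 15.0% of Ccr8-negative ILC2 in anti-PDCD1.

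Ligand and receptor of this axis met in single CD8 T cells too. Ccl1 was found in 8.02% of Ccr8-positive (34 of 424) and 1.75% of Ccr8-negative CD8 T cells in anti-PDCD1. In anti-TIGIT it was found in 19.2% (10 of 52) and 1.40%. After thinning the values were 2.44% and 1.49% in anti-PDCD1, and 14.3% (2 of 14) and 0.822% in anti-TIGIT, with overlapping intervals in both libraries.

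Ccl17, a ligand of CCR4, was highest in migratory dendritic cells and in type 2 conventional dendritic cells (cDC2). In cDC2, known by Cd209a, 920 UMIs gave 532 CPM in anti-PDCD1, against 413 UMIs and 190 CPM in anti-TIGIT, a log2 ratio of 1.49 (1.32 to 1.66), in a class where 2.59% of genes were at least 2-fold higher and 3.9% lower. Of cDC2, 47.3% and 28.3% had a Ccl17 UMI, and 22.3% (17.0 to 28.4) and 10.6% (7.55 to 14.3) after thinning. Neither pair of cDC2 intervals overlapped. Migratory dendritic cells, marked by Ccr7 and Fscn1, had 401 UMIs in 95 anti-PDCD1 cells and 37 in 30 anti-TIGIT cells. That gave 760 and 258 CPM and a log2 ratio of 1.56 (1.07 to 2.09), beside 10.4% of genes at least 2-fold higher. One anti-TIGIT cell held 27 of the 37 UMIs, and without the top cell of each library the log2 ratio was 3.12.

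The widest difference in Ccl17 among dendritic cells was in cDC1, the cross-presenting subset. They had 533 UMIs and 185 CPM in anti-PDCD1, against 10 UMIs and 11.8 CPM in anti-TIGIT, a log2 ratio of 3.97 (3.08 to 5.04), where 4.81% of genes were at least 2-fold higher and 3.55% lower. The UMIs lay in 73 of 269 anti-PDCD1 cells and 3 of 105 anti-TIGIT cells. After thinning 7.06% (4.31 to 10.8) and 0.962% (0.0243 to 5.24) had one, so these intervals overlap. Cells of the gate with a UMI of Xcr1 or Clec9a, 2 defining cDC1 transcripts, had 476 UMIs and 174 CPM in anti-PDCD1 and 10 UMIs and 13.1 CPM in anti-TIGIT. Cd209a, which defines cDC2, was at 2.78 CPM in anti-PDCD1 and 1.18 CPM in anti-TIGIT cDC1, against 921 and 1817 CPM in cDC2. Ccl17-positive cDC1 had a median of 10919 UMIs in anti-PDCD1, and Ccl17-negative ones 10135.5.

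Outside dendritic cells Ccl17 was low and lay in few cells. Monocytes had 93 UMIs in anti-PDCD1 and 7 in anti-TIGIT, a log2 ratio of 3.32 (2.22 to 4.67), with 53 of the 93 in 1 cell. Macrophages outside the microglia and border gates were the 1 class where it was lower in anti-PDCD1, with 21.5 CPM against 56.7 CPM in anti-TIGIT, a log2 ratio of −1.40 (−1.91 to −0.89). In that class 7.58% of genes were at least 2-fold lower, and 2 anti-TIGIT cells held 34 and 26 of 83 UMIs. A mean over cells put that ratio at −0.99. In the same gate the cDC2 transcript Cd209a was at 51.3 CPM in anti-PDCD1 and 140.0 CPM in anti-TIGIT, and its part in the Ccl17 value was not tested. Regulatory T cells had 36 UMIs in 7 anti-PDCD1 cells and none in 93 anti-TIGIT cells. That is 2.02-fold higher against a floor of 3 counts in the anti-TIGIT library, and the interval of the log2 ratio began at 0.64. Without the top cell 21 UMIs were left and the interval began at −0.19, so it held 0. Regulatory T cells had a Ccl17 UMI in 1.65% of anti-PDCD1 cells, beside 0.732% of oligodendrocytes. Other T cells had 16 UMIs and 1 UMI, a log2 ratio of 2.82 (0.13 to 8.21), and without the top cell of each library 3 and 0 were left.

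Ccl22, the other CCR4 ligand, was found mainly in dendritic cells. It did not pass 2-fold in any of their classes with all gated cells counted. Migratory dendritic cells held 38.2% of its UMIs in anti-PDCD1 and 30.5% in anti-TIGIT, and cDC2 held 18.7% and 33.9%. Migratory dendritic cells had 258 UMIs and 489 CPM in anti-PDCD1, against 90 UMIs and 627 CPM in anti-TIGIT, a log2 ratio of −0.36 (−0.71 to 0.00). One anti-TIGIT cell held 51 of the 90, and without the top cell of each library the ratio was 0.70 (0.21 to 1.23). Split by sex-linked transcripts, it was −2.91 in Xist-positive cells (50 and 51 UMIs) and 1.40 in Y-positive cells (76 and 10 UMIs), so no direction is given for it. The share of migratory dendritic cells with a Ccl22 UMI was 56.8% in anti-PDCD1 and 46.7% in anti-TIGIT, and 31.8% and 20.7% after thinning, with overlapping intervals.

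In cDC2 Ccl22 had 126 UMIs and 72.9 CPM in anti-PDCD1, and 100 UMIs and 46.0 CPM in anti-TIGIT, a log2 ratio of 0.66 (0.27 to 1.06). In cDC1 it had 22.9 and 18.9 CPM, a log2 ratio of 0.28 (−0.53 to 1.16). Ccl17 had 533 and 10 UMIs in cDC1, and Ccl22 had 66 and 16. Of the 16 Ccl22 UMIs, 13 lay in 1 anti-TIGIT cell. Without the top cell of each library the Ccl22 ratio in cDC1 was 2.03 (0.38 to 4.36), and a mean over cells put it at 1.10. Whether the Ccl17 and Ccl22 ratios in cDC1 differ was not tested. In single migratory dendritic cells Ccl22 was found in 87.1% of Ccl17-positive cells in anti-PDCD1 (27 of 31) and 66.7% in anti-TIGIT (4 of 6), against 42.2% and 41.7% of Ccl17-negative cells. In cDC2 Ccl22 was in 22.1% and 32.3% of Ccl17-positive cells, against 11.2% and 6.37% of Ccl17-negative ones. After thinning, the anti-PDCD1 values were 45.0% against 27.9% in migratory dendritic cells and 6.12% against 2.92% in cDC2, with overlapping intervals in both. In anti-TIGIT cDC2 they were 13.5% (4.54 to 28.8) against 1.92% (0.707 to 4.13).

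The 11 genes listed as inducers of Ccl17 and Ccl22, among them Il4ra, Stat6, Irf4, the GM-CSF receptor chains and Cd40, were compared in the dendritic cell classes. All 11 were measured and within 2-fold in cDC1, with a median log2 ratio of −0.09, and all 11 in cDC2, with a median of 0.01. In migratory dendritic cells 10 were measured and 1 was higher, Crlf2, the thymic stromal lymphopoietin receptor, with 41 and 3 UMIs and a log2 ratio of 1.89 (0.25 to 4.23), in a class where 10.4% of all genes were at least 2-fold higher.

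**Figure D5:**
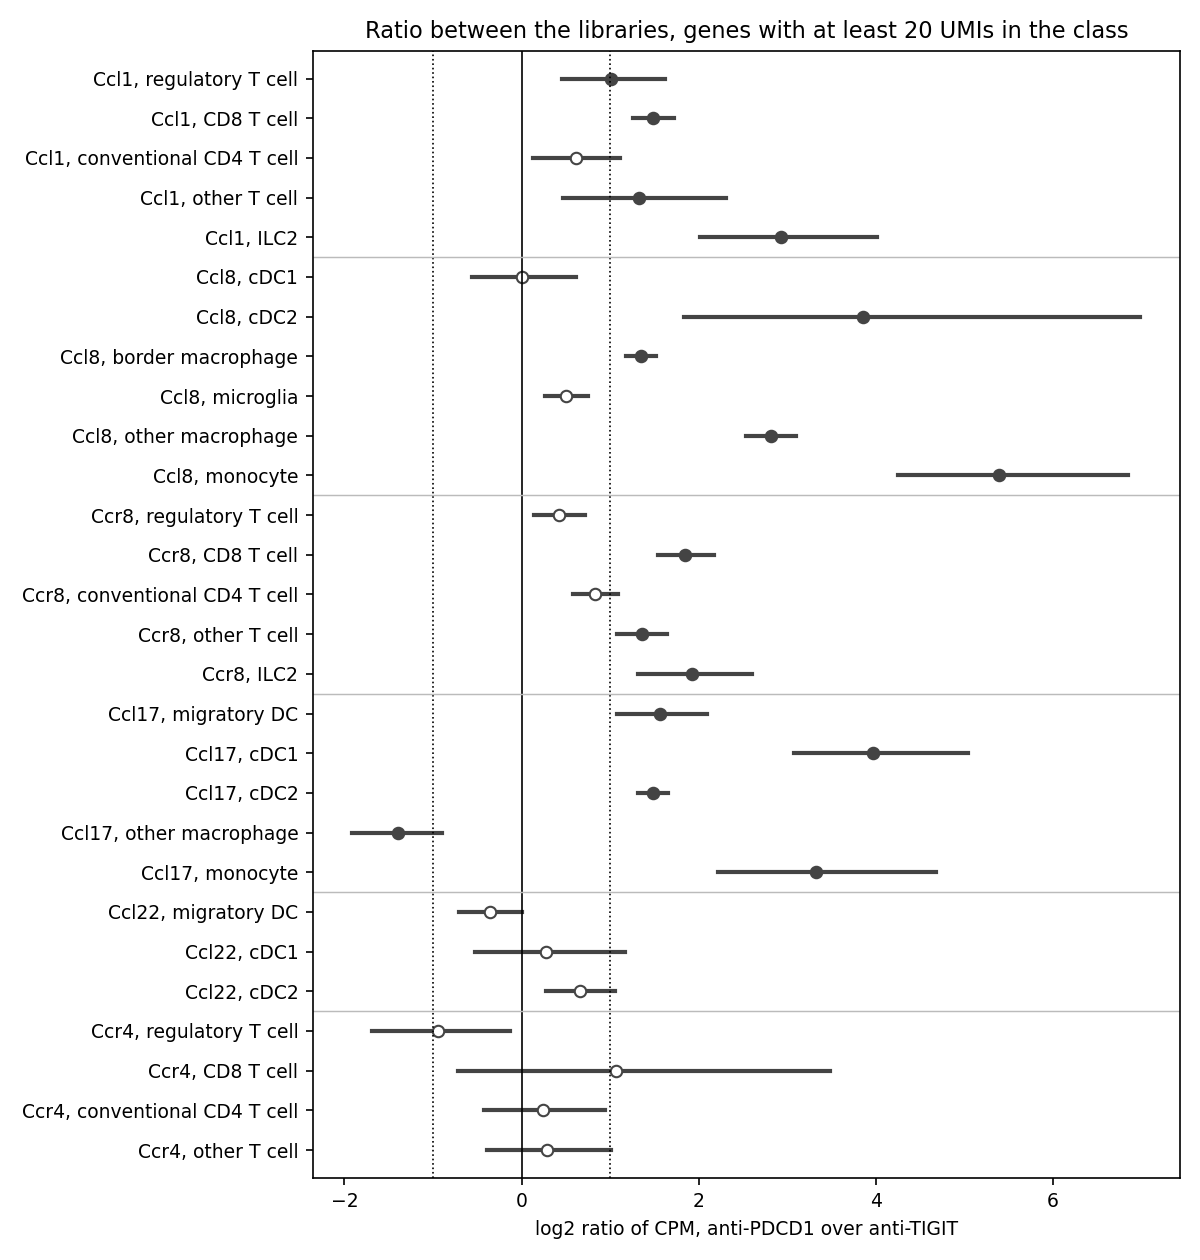
log2 ratio of CPM, anti-PDCD1 over anti-TIGIT, of each member in each class with at least 20 UMIs over both libraries (a class with no UMI in one library has no ratio). Lines are 95% intervals for counting error, dotted lines mark 2-fold and filled points are the ratios called higher or lower. Points of Ccl22 and Ccr4 are all open, and Ccl17 in other macrophages, at −1.40, is the 1 filled point below 0.

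Ccr4, the receptor of Ccl17 and Ccl22, was sparse, and no lymphocyte class met the 2-fold rule for it with the gates as set. In regulatory T cells 62 UMIs gave 28.9 CPM in anti-PDCD1, against 20 UMIs and 55.3 CPM in anti-TIGIT, a log2 ratio of −0.94 (−1.69 to −0.13). After thinning to 1000 UMIs that ratio was −0.021, from 18 and 4 UMIs, and with 1 more marker in every gate it was −1.06 (−1.79 to −0.27), past 2-fold. The share of regulatory T cells with a Ccr4 UMI was 11.3% in anti-PDCD1 and 16.1% in anti-TIGIT, and 4.05% and 4.35% after thinning. Conventional CD4 T cells had 35.2 and 29.8 CPM, a log2 ratio of 0.24 (−0.43 to 0.94), and other T cells 29.7 and 24.4 CPM, a log2 ratio of 0.29 (−0.39 to 1.01).

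CD8 T cells had 17 Ccr4 UMIs in anti-PDCD1 and 3 in anti-TIGIT, and ILC2 had 9 and 2. The log2 ratio of CD8 T cells was 1.07 (−0.72 to 3.48), so a difference was not detectable at this depth. Apart from CD8 T cells at 2.69 and 1.28 CPM, the intervals of the lymphocyte classes that carried Ccr4 overlapped within each library, and no order among them is given. In regulatory T cells Ccr4 was found in 12.1% of Ccr8-positive and 10.0% of Ccr8-negative cells in anti-PDCD1, and in 26.8% and 7.69% in anti-TIGIT. After thinning these were 4.80% and 3.73% in anti-PDCD1 and 4.0% and 4.48% in anti-TIGIT.

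Likeness of pattern was measured as Pearson's r of log2(CPM + 10) over 35 sums of class and library with at least 50 cells. The sums share libraries and depth, so r is a description. Nearest to Ccr8 were Pdcd1 (r = 0.96), Tnfsf11, the RANK ligand (0.95), and Icos (0.94), then Podnl1 and Gstp3. Nearest to Ccl1 were Pdcd1 (0.93), Neu3 (0.93) and Ccr8 itself (0.92), then Olfr60 and D630039A03Rik. For Ccr4 they were Tnfsf11 (0.96), Ccr8 (0.93), Neb, Rln3 and Arl5a.

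The ligands of myeloid cells had other neighbours. Ccl8 was most like Ms4a7 (0.93), which is also a marker of the border macrophage gate, Plau (0.92) and Ccl12 (0.91), with Rasl2-9 and Fblim1. Ccl17 was most like Aqp9 (0.90), and Ccl22 was also among its 5 nearest (0.87), with Gm36486, Gm27007 and Nod2 (0.87). Ccl22 was most like Pla1a (0.94), Gm2396, Gm27007, Mmp25 (0.91) and Vmn2r90.

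Other CC chemokines and receptors give the setting of the members. None of the 4 atypical chemokine receptors, which take up chemokines without signalling, had 20 UMIs in any of the 12 classes compared. Of 9 other CC receptors, 6 were measured in CD8 T cells. Ccr6 (1.77), Ccr9 (1.84) and Ccrl2 (1.56) were at least 2-fold higher and Ccr2 (−1.23) lower. The list median was 0.99, in a class where 5.53% of all genes were higher and 2.8% lower. Of 15 other CC chemokines, 5 were measured in regulatory T cells, of which Ccl3 (4.32), Ccl4 (2.02) and Ccl5 (1.58) were higher and Ccl25 (−1.33) lower, with a median of 1.58, beside 7.56% of all genes higher and 4.43% lower. In that gate Cd8a was at 233 CPM in anti-PDCD1 and 66.4 CPM in anti-TIGIT, and Cd8b1 at 203 and 49.8 CPM, and their part in the chemokine values was not tested. In cDC1, Ccl12 was higher (1.27) and Ccl3 lower (−2.20) among 9 measured, beside 4.81% of all genes higher and 3.55% lower. In cDC2, Ccl12 was higher (3.28) and Ccl9 lower (−1.55) among 8, beside 2.59% of all genes higher and 3.9% lower. In microglia Ccl5 was higher by 3.17 and Ccl24 lower (−2.86) among 11 measured, beside 4.09% of all genes higher and 7.01% lower.

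Genes of naive and recirculating lymphocytes, 7 in the list, had medians below 0 in all T cell classes that carry the receptors. In regulatory T cells Klf2 (−1.66) and S1pr1 (−1.16), which serve exit from tissue, were at least 2-fold lower, and the list median was −0.76. In that class 4.43% of all genes were at least 2-fold lower. In CD8 T cells none of the 7 passed 2-fold and the median was −0.47. Ccr7, the lymph node homing receptor, was higher in conventional CD4 T cells (1.18) and in other T cells (1.08), against list medians of −0.28 and −0.35. Of all genes, 5.05% were at least 2-fold higher in conventional CD4 T cells and 5.89% in other T cells.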

How the data were processed

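Filtered single-cell count matrices were deposited as whole-number UMI counts per gene and barcode, per the file headers, made with Cell Ranger 8.0.0 for one library and 8.0.1 for the other. The submitters' processing notes name mm10, Seurat 5.0.3 and R 4.1.1, and libraries were made with a 10x 5' v2 kit per the labels' protocols. How introns were counted is not given in the sources used here. The members, gates and gene lists were chosen with earlier results of these data known.

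Barcodes with under 200 genes or over 10% mitochondrial UMIs were removed, as were doublets called by Scrublet in scanpy 1.11.5 (expected rate 0.8% per 1000 cells), 576 in anti-PDCD1 and 155 in anti-TIGIT, or 4.16% and 2.03%. Cells were classed by the number of detected markers of each type. T cells needed 2 of Cd3e, Cd3d, Cd3g and Trac and were split by Foxp3, Cd4, Cd8a and Cd8b1. ILC2 needed 3 of 7 markers, cDC1 and cDC2 3 of 6, migratory dendritic cells 3 of 7, border macrophages 3 of 7, microglia 3 of 6, other macrophages 4 of 6 and monocytes 4 of 7. Cells that met gates of more than 1 family were left out as mixed, and 10.2% of anti-PDCD1 and 10.5% of anti-TIGIT cells met none.

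UMIs were summed by class and library into CPM with exact Poisson 95% intervals (scipy 1.17.1). Ratios have exact conditional binomial intervals and shares exact Clopper-Pearson intervals. A ratio needed 10 UMIs, and the background in a class is the percentage of genes with at least 20 UMIs that lay past 2-fold. A class sum of 0 was set against a floor of 3 counts. Shares of cells were repeated with each cell thinned to 1000 UMIs. Scripts were tested on simulated counts.

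Named genes are the members, the listed genes, the 5 genes most like each member in pattern, and the 8 highest and 4 lowest genes beside Ccr8. Alternatives varied doublets, cell filters, gates, sex-linked cells, thinning, scaling and UMI minimum. Leaving out the top cell, a mean over cells, all macrophage and monocyte gates together, and the background of classes with under 100 cells in a library were added after seeing the data. Promoters are RefSeq windows of GRCm38.p6 and gene positions GENCODE M21 on GRCm38.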

Additional observations from a re-analysis of the deposited data

Results flagged for a closer look

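The direction of Ccl17 differed between classes. Its log2 ratio of anti-PDCD1 over anti-TIGIT was 3.97 in cDC1, 1.49 in cDC2, 1.56 in migratory dendritic cells, 3.32 in monocytes and 2.82 in other T cells, but −1.40 in macrophages outside the microglia and border gates. In those macrophages the cDC2 transcript Cd209a was at 51.3 CPM in anti-PDCD1 and 140.0 CPM in anti-TIGIT, and its part in the Ccl17 value was not tested. With 1 library a group the difference between classes was not tested.

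Transcripts of the members also lay in cells outside the gated classes, either mixed cells with markers of more than 1 family or cells that met no gate. These cells held 13.3% of Ccl1 UMIs in anti-PDCD1 and 8.95% in anti-TIGIT, 17.2% and 2.78% of Ccl8, and 18.9% and 12.3% of Ccr8. They held 25.7% of Ccl17 in anti-PDCD1 and 21.2% in anti-TIGIT, 22.7% and 24.7% of Ccl22, and 16.6% and 15.8% of Ccr4. Of the 726 Ccr8 UMIs in mixed anti-PDCD1 cells, 319 were in cells with lymphoid and myeloid markers and 222 in cells with lymphoid and B lineage markers. In anti-TIGIT these were 21 and 11 of 45. Of cells that met no gate and had a Ccl17 UMI, 31 of 76 in anti-PDCD1 and 11 of 19 in anti-TIGIT had at least 2 cDC2 markers, against 52 of 1278 and 74 of 767 of those without Ccl17.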

How the results depend on the processing

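No paired analysis was possible because each group was 1 library. Of 123 log2 ratios under alternative settings, 119 had the sign reported. The sign does not show changes of size. Among all checks of the main results, 79 were marked as unchanged, 72 as moved and 0 as reversed. Some marked as moved changed sign. Ccl22 in migratory dendritic cells, a main result at −0.36, was at 1.40 in cells with Y-linked UMIs only. It was at 0.67 after thinning and at 0.70 without the top cell of each library. Among checks of the other results, 65 were marked as unchanged, 42 as moved and 1 as reversed. The cause of each change below was not tested. Some rest on few counts: Ccr8 in Xist-positive CD8 T cells on 253 and 2 UMIs, and shares in Xist-positive anti-TIGIT cells on 26 Ccr8 and 5 Ccr4 UMIs.

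Ratios moved as follows. In cells with Y-linked UMIs only, the log2 ratio was 0.86 for Ccr8 in regulatory T cells, 1.40 for Ccl22 in migratory dendritic cells and 1.15 for Ccl17 in cDC2, and Ccl22 in cDC2 reversed to −0.39. In Xist-positive cells it was 4.29 for Ccr8 in CD8 T cells, −2.91 for Ccl22 in migratory dendritic cells and 1.10 for Ccl17 in cDC2. Thinned to 1000 UMIs it was 2.37 for Ccr8 in CD8 T cells, −0.021 for Ccr4 in regulatory T cells, 0.67 for Ccl22 in migratory dendritic cells and 0.74 for Ccl8 in border macrophages. With 1 more marker a gate, Ccl17 in cDC2 was at 1.67 and Ccl8 in border macrophages at 1.76, and with 1 marker fewer Ccl22 in migratory dendritic cells was at −0.74. Without the top cell of each library, Ccl22 in migratory dendritic cells was at 0.70 and Ccl8 in border macrophages at 1.09. The last was 0.62 as a mean over cells and 0.81 over all macrophages and monocytes.

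Shares of a gene's UMIs moved with the gates, the sex-linked split and thinning. For Ccl8 in border macrophages, 1 more marker gave 11.1% in anti-PDCD1 and 40.0% in anti-TIGIT, 1 fewer 10.8% and 52.2%, Xist-positive cells 7.63% and 84.3%, and Y-positive cells 7.10% and 49.1%. In anti-TIGIT it was 65.7% under the stricter cell filter (500 genes, 5% mitochondrial) and 71.6% thinned. For Ccl22 in migratory dendritic cells, 1 fewer gave 27.4% in anti-PDCD1 and 38.0% in anti-TIGIT, Xist-positive cells 27.2% and 70.8%, and Y-positive cells 44.2% and 10.9%. In anti-PDCD1 it was 32.3% with 1 more and 49.5% thinned. For Ccl17 in cDC2 and migratory dendritic cells, 44.7% and 60.5% as reported, 1 more gave 31.3% and 37.9%, 1 fewer 39.7% and 64.4%, Xist-positive cells 57.3% and 94.9%, Y-positive cells 34.2% and 55.9%, and thinning 41.5% and 56.2%. It was 42.0% in anti-PDCD1 with doublets kept. For Ccr8 in regulatory T cells in anti-PDCD1, 1 fewer gave 17.7%, Xist-positive cells 11.9%, Y-positive cells 30.0% and thinning 18.6%, and in anti-TIGIT Xist-positive cells gave 0. For Ccr4 in regulatory T cells, Xist-positive cells gave 5.08% in anti-PDCD1 and 0 in anti-TIGIT, and Y-positive cells 30.9% in anti-PDCD1.

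The percentage of genes past 2-fold in either direction moves with the UMI minimum by construction. At 100 UMIs it was 4.03% in regulatory T cells, 3.25% in CD8 T cells, 2.37% in cDC1, 2.71% in cDC2, 6.34% in migratory dendritic cells, 1.66% in border macrophages and 5.34% in microglia. At 10 UMIs it was 12.9% in cDC1, 9.80% in cDC2, 23.6% in migratory dendritic cells and 9.76% in border macrophages. Regulatory T cells with a Ccr8 UMI were 62.3% in anti-PDCD1 and 44.1% in anti-TIGIT unthinned, and 16.7% and 11.8% at 500 UMIs. CD8 T cells were 29.2% and 8.32% unthinned, and 6.41% in anti-PDCD1 at 500 UMIs. Depth limits Ccr4 most, with 265 and 95 UMIs in the libraries.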
